A study of Homo sapiens with 20 samples.

Results

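Translation initiation and elongation factors are the proteins that load ribosomes onto mRNA, find the start codon and drive peptide synthesis. The members are 50 genes, namely eukaryotic initiation factors (eIF), elongation factors (eEF), cytoplasmic poly(A)-binding proteins (PABP), kinases and inhibitors that act on them, and TPT1. They were chosen by annotated gene symbol. Of the 50, 44 had a probe set annotated to a single gene symbol, with 121 such probe sets among 54675 on the array, and 43 were bright enough to be tested among 14478 genes. EIF4A2 had a mean below the filter. EIF4A1, EIF4G3, EEF1B2, EEF1E1, EEF1G and PABPC4 had no probe set with a single symbol in the annotation used and are not analysed here.

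The signals come from U2OS, an established human osteosarcoma line, on 20 Affymetrix 3' expression arrays. Hypoxia meant oxygen below 0.1%, and the drugs were tunicamycin at 2.5 ug/ml and emetine at 100 ug/ml. The fourth group was depleted of UPF1 with a short hairpin (shRent1), and the last was the control, with 4 arrays in each group. The stresses lasted 3 hr. All 5 groups then received DRB (100 ug/ml), an inhibitor of transcription elongation, and RNA was sampled from 0 to 4.5 hr in steps of 1.5 hr, with 1 array per group and time. Nothing in the labels says whether the stress went on during DRB. Tunicamycin blocks N-linked glycosylation and so stresses the endoplasmic reticulum, emetine stops ribosomes during elongation, and UPF1 is the central helicase of nonsense-mediated mRNA decay. A control hairpin is not named for shRent1, and no label states that the arrays are of separate cultures, so p-values measure only the scatter between these arrays.

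Signals are normalized (RMA) intensities, compared on the log2 scale. A level is therefore relative to the other transcripts on that array, and mRNA content per cell cannot be seen. UPF1 itself averaged 29.1% of control in shRent1 cells over the 4 times, and its fitted level at DRB addition was 40.4% of control. The log2 ratio of the 3' to the 5' probe set of ACTB, a sign of RNA or labelling length, was 2.04 ± 0.13 under hypoxia and 2.04 ± 0.19 under emetine, 1.24 ± 0.06 for shRent1 and 0.54 ± 0.11 for tunicamycin, against 0.55 ± 0.10 for control (SD, n = 4 times each). The same ratio of GAPDH was 0.15 ± 0.04, 0.11 ± 0.03, 0.07 ± 0.02 and 0.003 ± 0.04 in the same order of groups, against 0.04 ± 0.04 for control. Both ratios were thus highest under hypoxia and emetine, where most of the lower members were found, but that of GAPDH differed far less. The part of RNA or labelling length in those results was not tested. The mesenchymal markers VIM, SPARC, FN1, CD44, THY1 and RUNX2 were above the filter on average and COL1A2 was below it. Of the markers of other cell types, EPCAM (log2 8.11) and PECAM1 (6.25) were above it, and CDH1, PTPRC and ALB below it.

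As background, initiation begins when eIF2, carrying GTP and the initiator tRNA, joins eIF1, eIF3 and eIF5 on the small subunit. The complex is recruited to the mRNA cap by eIF4E and eIF4G, with the helicase eIF4A and its helpers eIF4B and eIF4H. Under stress, kinases phosphorylate eIF2, which then blocks its exchange factor eIF2B, and 4E-BP proteins hold back eIF4E. Elongation is carried by eEF1A, which brings aminoacyl-tRNA, and eEF2, which moves the ribosome. Elongation factors, PABPC1, TPT1 and ribosomal proteins are encoded by TOP mRNAs, whose 5' end is a cytosine followed by a run of pyrimidines that couples their translation to mTOR.

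Several members have this feature at their annotated start. Each window below has 15 bases before the RefSeq start and 15 from it (GRCh38.p14, 5' to 3' on the gene's strand), and capitals mark the unbroken run of C or T that begins at the start. The first 5 are tested members of the TOP list with an entry in the RefSeq start table, and EIF1B and EIF1, initiation factors whose signals fell after DRB, follow for comparison.
EEF1A1 (chr6:73521018-73521047, minus strand): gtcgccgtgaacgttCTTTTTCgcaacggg
EEF2 (chr19:3985449-3985478, minus strand): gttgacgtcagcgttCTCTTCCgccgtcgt
TPT1 (chr13:45341169-45341198, minus strand): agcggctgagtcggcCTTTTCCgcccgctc
EIF3F (chr11:7987322-7987351, plus strand): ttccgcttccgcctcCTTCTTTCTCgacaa
EIF4B (chr12:53006441-53006470, plus strand): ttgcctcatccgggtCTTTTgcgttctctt
EIF1B (chr3:40309692-40309721, plus strand): tcggccattttgtgcgagaagccgcagcgc
EIF1 (chr17:41688870-41688899, plus strand): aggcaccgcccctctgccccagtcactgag
A C at the start followed by at least 4 more C or T, on the gene's strand alone, occurred in 4.07% of all 35116 start windows of the table. By gene, 11 of 39 members with a window held it (28.2%), as did 6 of 7 members of the TOP list (85.7%), 47 of 63 ribosomal protein genes (74.6%) and 5.14% of all 27305 genes. Outside the TOP list, EIF2A, EIF3D, EIF3K, EIF3M and EIF4A2 held it. The median slope after DRB in control was 0.002 log2 per hr over 9 tested members with such a start and 0.0 over 24 without. A link between the start and loss of signal was not tested. EIF2A, which has such a start and whose signal also fell after DRB in control, is shown too.
EIF2A (chr3:150546772-150546801, plus strand): tcacccgagcggtttCTCTTTCCgggacaa
These matches describe the annotated start and do not show where these cells begin the transcript.

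The brightest probe sets of the 3 tested elongation factors among the members stayed near control in every group. EEF1A1, which delivers aminoacyl-tRNA, read 26100, 26205, 26143 and 25419 in hypoxia, 26997, 28130, 28318 and 28573 in tunicamycin, 26517, 27458, 27371 and 28344 in emetine, 26797, 26880, 27044 and 26290 in shRent1, and 27570, 27863, 27450 and 27886 in control cells, from 0 to 4.5 hr. EEF2, the translocase, read 12321, 12279, 12271 and 11744 in hypoxia, 11997, 12310, 12744 and 12521 in tunicamycin, 12891, 12086, 12010 and 12274 in emetine, 12247, 12570, 12242 and 12368 in shRent1, and 11529, 11601, 11331 and 11784 in control. The control arrays of EEF2 lie below nearly all others, by a few percent, while those of EEF1A1 overlap with tunicamycin and emetine. The mean difference from control over the 4 times was between -0.09 and 0.02 log2 for EEF1A1 (SE 0.05), between -0.08 and 0.01 for EEF1D, part of the exchange factor of eEF1A (SE 0.05), and between 0.07 and 0.10 for EEF2 (SE 0.05). None of these 3 factors passed the threshold (limma, Benjamini-Hochberg adjusted p under 0.05 over all genes) for the level at DRB addition, the mean level or the slope in any group, nor did any at an unadjusted p under 0.05. With every probe set fitted on its own, some dimmer ones passed for the mean level. For EEF1A1 these were 213583_x_at (0.20) and 213477_x_at (0.16) in emetine, 1557120_at in hypoxia (0.30), and 227708_at, which was lower in emetine (-0.40 ± 0.09; adjusted p = 0.00185) and higher in shRent1 cells (0.51 ± 0.09; adjusted p = 0.000866). Probe set 227708_at of EEF1A1 read 356, 381, 420 and 433 in emetine and 732, 705, 768 and 765 in shRent1 cells, against 612, 505, 465 and 517 in control, with no overlap between either group and control. For EEF1D 203113_s_at was lower in emetine (-0.13; adjusted p = 0.0493), and for EEF2 the second probe set passed for none.

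The 9 tested members of the TOP list were EEF1A1, EEF1D, EEF2, EIF3E, EIF3F, EIF3H, EIF4B, PABPC1 and TPT1. None passed for level at DRB addition or slope difference in any group. For the mean level, EIF4B, the helper of the eIF4A helicase, rose in hypoxia by 0.21 ± 0.06 (SE; adjusted p = 0.0122) and fell in shRent1 cells (-0.20 ± 0.06; adjusted p = 0.0112), where the dimmest of 3 EIF4B probe sets was higher (0.31). PABPC1, which coats poly(A) tails, fell in emetine by 0.23 ± 0.05 (adjusted p = 0.00104), with 18218 to 18943 in emetine against 21244 to 22538 in control. EIF3F fell in shRent1 cells by 0.17 ± 0.05 (adjusted p = 0.0211; lost, like that of EIF4B, in 4 of the 20 fits without 1 array), but a dim second probe set of EIF3F was higher there, at 194, 257, 336 and 337 in shRent1 cells against 89, 132, 87 and 151 in control. That probe set of EIF3F gave 1.3 in shRent1 cells. EEF1A1, EEF1D, EEF2, EIF3E, EIF3F, PABPC1 and TPT1 were read from _s_at or _x_at probe sets, which may also detect related transcripts. The ranges that follow are those of the brightest probe sets. The dimmer EEF1A1, EIF3F and EIF4B probe sets named above lie outside them, as do some dimmer ones of other TOP members. In emetine EIF3H 230570_at read 46, 67, 59 and 68, against 84, 90, 98 and 121 in control. EIF3E 235429_at read 163, 195, 171 and 175 in emetine, against 235, 275, 219 and 292 in control. EEF1D 214395_x_at read 146, 157, 853 and 275 in tunicamycin, against 131, 156, 182 and 181 in control. The range of mean differences over the 9 was -0.09 to 0.21 in hypoxia, -0.05 to 0.10 in tunicamycin, -0.23 to 0.09 in emetine and -0.20 to 0.10 in shRent1 cells. Over the other 34 members it was -0.59 to 0.41, -0.90 to 1.40, -0.91 to 1.26 and -0.35 to 0.64 in the same order of groups. The 52 tested ribosomal protein genes, whose mRNAs are of the same class, had medians of 0.03 for hypoxia, -0.003 for tunicamycin, -0.02 for emetine and 0.03 for shRent1. Of them 3 rose in hypoxia, 0 moved in tunicamycin, 1 rose and 4 fell in emetine, and 3 rose in shRent1 cells. Of all genes 15.9% rose and 14.4% fell in hypoxia, and 16.2% and 15.5% in tunicamycin. The shares were 30.5% and 38.1% in emetine and 23.4% and 17.4% in shRent1 cells, larger than among ribosomal protein genes in every group.

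These transcripts are among the brightest on the array, with 6 probe sets brighter than that of EEF1A1, 67 brighter than that of PABPC1 and 86 brighter than that of TPT1. Whether signal near the top of the range limits the changes seen was not tested. Over the 620 tested genes at least as bright as EIF4B, the dimmest of the 9, the median size of the mean difference was 0.10 in hypoxia, 0.07 under tunicamycin, 0.18 in emetine and 0.08 in shRent1 cells, against 0.14, 0.14, 0.32 and 0.18 over all genes. Of these bright genes 28.7% passed for the mean in hypoxia, 19.8% under tunicamycin, 57.7% in emetine and 25% in shRent1 cells. Of the 9 TOP members 1, 0, 1 and 2 passed in the same order of groups. The split between TOP members and the rest was not tested.

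**Figure D1:**
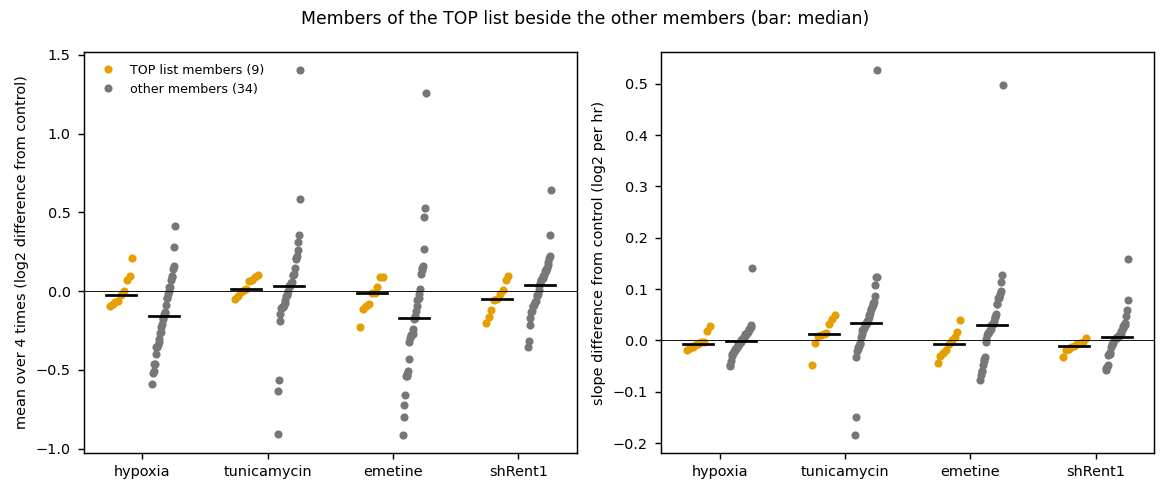
Estimated differences from control for the 9 tested TOP list members (orange) and the other 34 members (grey) in each group, as mean level (left, log2) and as slope after DRB (right, log2 per hr), with bars at the medians. By the brightest probe set of each gene, the TOP members lie between -0.23 and 0.21 for the mean level, while other members reach -0.91 and 1.40. Some dimmer probe sets of TOP members, not drawn, lie outside that range.

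Counts over all 43 members were as follows, each beside the share of all 14478 genes called in that direction. At DRB addition, hypoxia raised 1 member and lowered 7 (2.33% and 16.3%, against 3.21% and 4.44% of all genes). Tunicamycin raised 0 and lowered 2 (4.65%, against 1.97% up and 0.926% down of all genes). Emetine raised 2 and lowered 16 (4.65% and 37.2%, against 18.9% and 19.8%), and shRent1 raised 1 and lowered 0 (2.33%, against 9.68% up and 3.99% down). The lower calls in hypoxia and emetine were thus a larger share than among all genes, and the higher calls in emetine a smaller one. The level in hypoxia rests on the 0 hr arrays: without the 0 hr control or the 0 hr hypoxia array, 0 members passed. In emetine the count of 18 likewise fell to 7 without the 0 hr control or the 0 hr emetine array. The 7 members lowered at DRB addition in hypoxia are given beside their emetine values, both set against the same control arrays. They were EIF2B3 (-0.54 in hypoxia and -0.76 in emetine), EIF6 (-0.51 and -0.83), EIF5A (-0.50 and -0.995), EIF2B4 (-0.49 and -0.44), EIF3J (-0.49 and -0.17), EIF2S1 (-0.35 and -0.37) and EIF2B1 (-0.33 and -0.61), all past the threshold except EIF3J in emetine. The second EIF3J probe set read 395 in hypoxia at 0 hr, against 359 in control.

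For the mean over the 4 times, hypoxia raised 4 members and lowered 18 (9.30% and 41.9%, against 15.9% and 14.4% of all genes). Emetine raised 6 and lowered 19 (14.0% and 44.2%, against 30.5% and 38.1%). Tunicamycin raised 8 and lowered 4 (18.6% and 9.30%, against 16.2% and 15.5%), and shRent1 raised 7 and lowered 5 (16.3% and 11.6%, against 23.4% and 17.4%), shares nearer to those of all genes. Without the 0 hr control array the tunicamycin count of 12 fell to 7, and without that array, the 4.5 hr control array or the 0 hr shRent1 array the shRent1 count of 12 fell to 5 (to 6 without the 4.5 hr shRent1 array). The median member differed from control by -0.09 in hypoxia, 0.03 under tunicamycin, -0.11 in emetine and 0.01 in shRent1 cells, and the median gene by -0.01, -0.02, -0.10 and -0.01. All 4 arrays lay below all 4 control arrays for 13 members in hypoxia, 3 under tunicamycin, 19 in emetine and 4 in shRent1 cells, and above them for 2, 7, 8 and 4. Over all genes the shares below were 7.3%, 5.9%, 22.6% and 6.87%, and those above 5.1%, 5.79%, 22.4% and 11%. The 30 tested initiation factors gave 4 rises and 14 falls in hypoxia, 8 and 2 in tunicamycin, 6 and 12 in emetine and 6 and 3 in shRent1 cells, and the 3 elongation factors gave 0 of either in each.

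**Figure D2:**
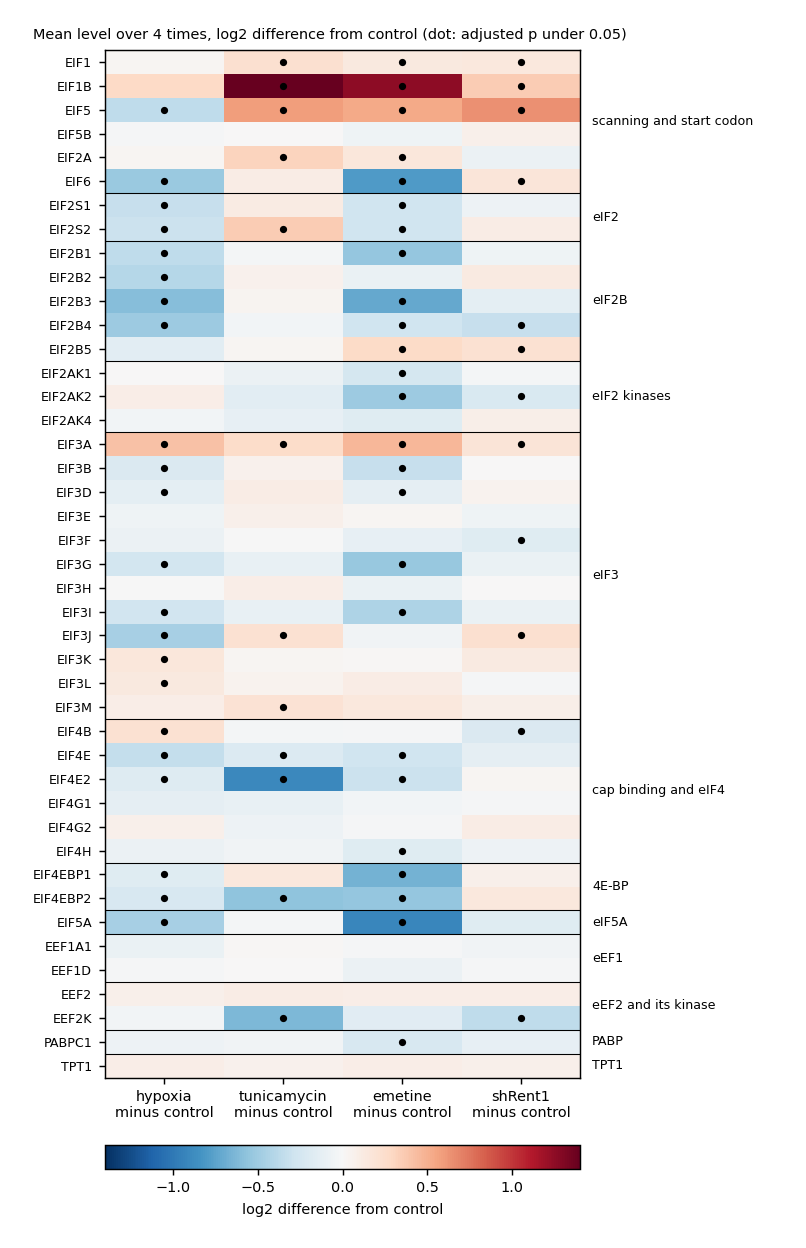
Log2 difference from control of the mean level over the 4 times for all 43 tested members (rows, by role) in each group (columns), red for higher and blue for lower, with a dot where the adjusted p is under 0.05. EIF1B in tunicamycin (1.40) and emetine (1.26) is the most raised, and EIF5A in emetine (-0.91) and EIF4E2 in tunicamycin (-0.90) are the most lowered.

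The largest mean differences among the members were those of a scanning factor. EIF1B, a close relative of EIF1, the factor that keeps the scanning ribosome from settling on a wrong codon, read 1767, 1569, 1058 and 625 in hypoxia from 0 to 4.5 hr. It read 2343, 2541, 2440 and 2802 in tunicamycin, 2209, 2259, 2361 and 2330 in emetine, 1795, 1589, 1210 and 648 in shRent1 cells, and 1674, 1589, 780 and 404 in control. The signal thus fell after DRB in control, hypoxia and shRent1 cells and did not fall in tunicamycin or emetine, where every array lay above every control array. At 4.5 hr 35.4% of the 0 hr signal was left in hypoxia, 119.6% in tunicamycin, 105.5% in emetine, 36.1% in shRent1 cells and 24.2% in control. The decline was tested as the slope of log2 signal on time. The slope of control was -0.48 ± 0.06 log2 per hr (SE; adjusted p = 3.15e-05), and those of hypoxia (-0.34 ± 0.06) and shRent1 cells (-0.32 ± 0.06) also passed. The slope difference from control was 0.53 ± 0.06 in tunicamycin (adjusted p = 0.000753) and 0.50 ± 0.06 in emetine (adjusted p = 0.000174). For hypoxia it was 0.14 ± 0.06 (adjusted p = 0.476) and for shRent1 cells 0.16 ± 0.06 (adjusted p = 0.672). So the slopes in tunicamycin and emetine differed from that in control, while the differences in hypoxia and shRent1 cells missed the threshold. The mean level was 2.64-fold of control in tunicamycin, 2.39-fold in emetine and 1.28-fold in shRent1 cells, all past the threshold, and 1.22-fold in hypoxia (adjusted p = 0.0651). The shRent1 mean (0.35 log2) missed the threshold without the 0 hr control array (0.20), the 4.5 hr control array (0.28) or the 3 hr shRent1 array (0.28).

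**Figure D3:**
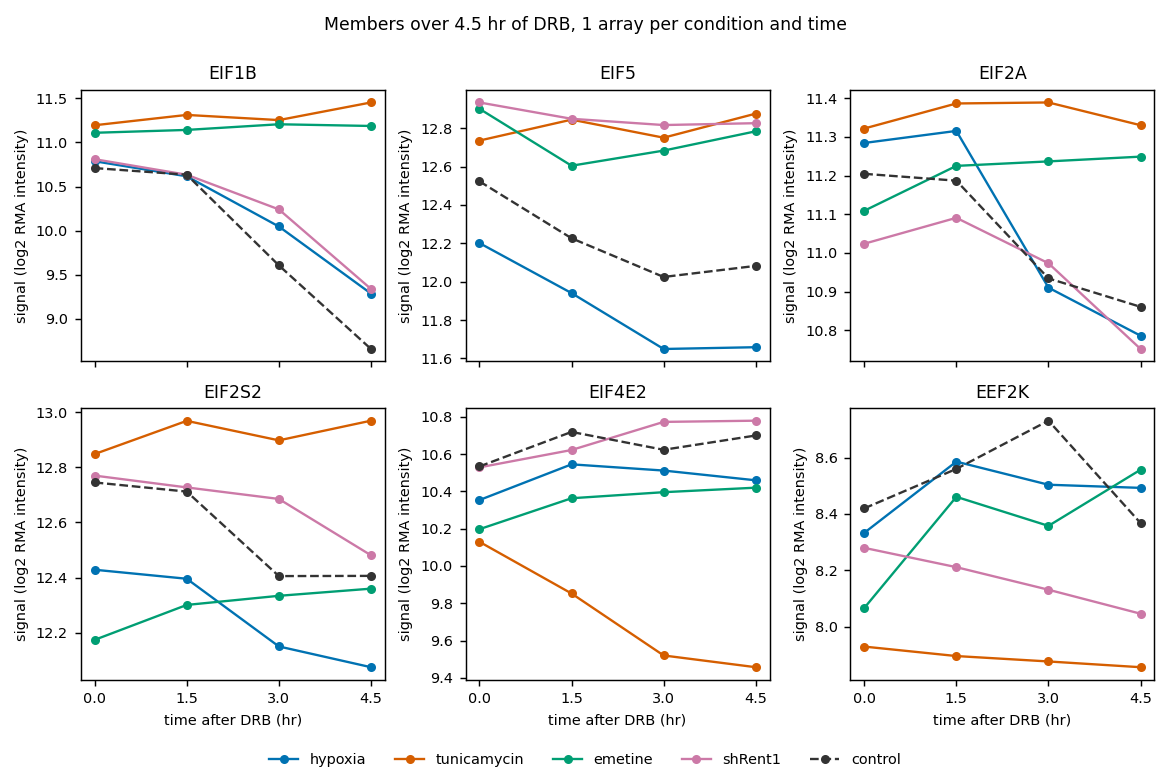
Signal (log2 RMA intensity) of 6 members against time after DRB (hr), with 1 array per group and time and control dashed. EIF1B stays level in tunicamycin and emetine and ends at 404 in control, and EIF4E2 falls to 703 in tunicamycin, against 1663 in control.

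EIF1 has 6 probe sets above the filter, and they differ in size of change. The brightest read 15860 to 14188 in hypoxia, 17261 to 18172 in tunicamycin, 16193 to 16804 in emetine, 17348 to 15568 in shRent1 cells and 15976 to 13548 in control, from 0 to 4.5 hr. Its mean rose in tunicamycin (0.23 ± 0.05; adjusted p = 0.00481), emetine (0.14) and shRent1 cells (0.15), and it fell after DRB in control (-0.06 ± 0.02 log2 per hr; adjusted p = 0.0469). Of the 20 fits that left out 1 array, the tunicamycin call was lost in 1, the emetine call in 7, the shRent1 call in 10 and the control slope in 18. With every probe set fitted, the shRent1 mean (adjusted p = 0.0561) and the control slope (0.0641) of 211956_s_at also missed the threshold. Probe set 212227_x_at, less bright, read 9355, 8485, 6088 and 5452 in hypoxia, 12554, 12966, 12800 and 13401 in tunicamycin, 11462, 11207, 11709 and 11545 in emetine, 12224, 11040, 10630 and 9812 in shRent1 cells, and 9889, 7546, 6095 and 4903 in control. This probe set lost about the same share as 202021_x_at and 212130_x_at in control, with 47.4% to 49.6% of the signal left at 4.5 hr, against 105.5% to 106.7% in tunicamycin and 99.0% to 100.7% in emetine. In a fit of every probe set on its own, the control slope of 212227_x_at was -0.22 ± 0.02 log2 per hr (adjusted p = 2.08e-05), and its slope was higher by 0.24 in tunicamycin (adjusted p = 0.00351) and by 0.23 in emetine (adjusted p = 0.00105). A dimmer probe set, 228967_at, had a mean higher by 1.45 in emetine, 1.26 in shRent1 cells and 0.68 in tunicamycin, and a lower one in hypoxia (-0.36), all past the threshold. Letters _x_at mark probe sets that may also detect related transcripts.

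**Figure D4:**
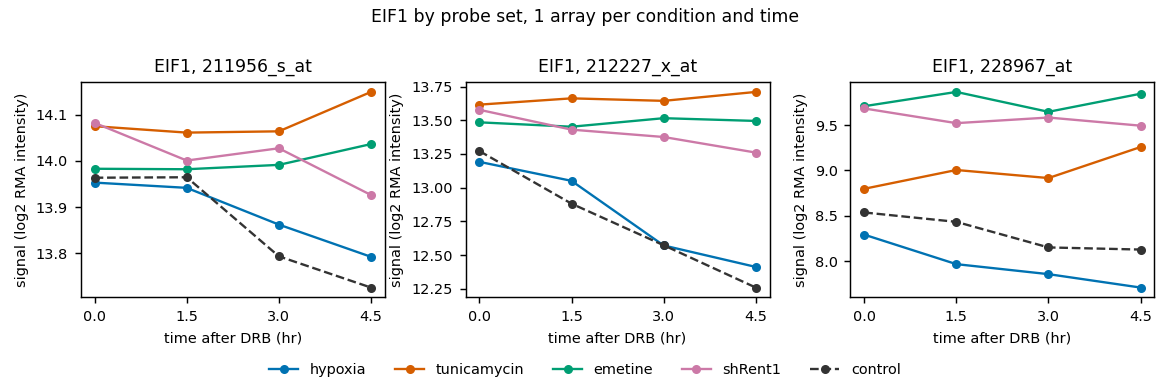
Signal (log2 RMA intensity) of 3 EIF1 probe sets against time after DRB (hr), 1 array per group and time, control dashed. The brightest probe set (left) moves over a narrow range, the second falls to 4903 in control, against 13401 in tunicamycin and 11545 in emetine, and the third is highest in emetine and shRent1 cells.

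EIF5, which triggers GTP hydrolysis by eIF2 at the start codon, read 4709, 3930, 3212 and 3232 in hypoxia, 6820, 7356, 6891 and 7518 in tunicamycin, 7650, 6227, 6577 and 7052 in emetine, 7827, 7378, 7213 and 7262 in shRent1 cells, and 5886, 4792, 4166 and 4336 in control. The 3 groups other than hypoxia lay above every control array, and hypoxia lay below control at each time. Its mean was 1.50-fold of control in tunicamycin, 1.44-fold in emetine and 1.56-fold in shRent1 cells, and 0.78-fold in hypoxia, each past the threshold. EIF5 was the only member called at DRB addition in shRent1 cells (0.47 ± 0.11; adjusted p = 0.0127). In control it fell by 0.10 ± 0.03 log2 per hr (adjusted p = 0.0314), a slope of -0.05 without the 0 hr control array (adjusted p = 0.615) and -0.09 without the 3 hr one (adjusted p = 0.0543). The shRent1 level was not called without either 0 hr array of the comparison. All 5 of its probe sets pointed upward in tunicamycin, emetine and shRent1 cells and downward in hypoxia.

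EIF2A, an initiator tRNA carrier distinct from eIF2, and EIF2S2, the beta subunit of eIF2, also fell in control, by 0.09 log2 per hr each (adjusted p = 0.0344 and 0.0173). EIF2A had 70.8% of its 0 hr signal left at 4.5 hr in hypoxia, 100.6% in tunicamycin, 110.2% in emetine, 82.8% in shRent1 cells and 78.8% in control. EIF2S2 had 78.3%, 108.7%, 113.7%, 81.9% and 79.1% left in the same order of groups. The slope was higher in emetine for EIF2A (0.11 ± 0.03; adjusted p = 0.0388) and for EIF2S2 (0.13 ± 0.03; adjusted p = 0.0201). These calls were lost in 12 and 3 of the 20 fits without 1 array, and the control slopes in 4 and 2. A dim second probe set of EIF2S2 had a slope near 0 in control (0.01 log2 per hr).

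EIF6, which keeps the large subunit from joining early, was low in hypoxia and emetine. It read 1546, 1744, 1618 and 1727 in hypoxia, 2285, 2522, 2547 and 2872 in tunicamycin, 1287, 1338, 1384 and 1477 in emetine, 2575, 2479, 2895 and 2750 in shRent1 cells, and 2352, 2217, 2433 and 2515 in control. Every hypoxia and emetine array lay below every control array. The level at DRB addition fell in hypoxia (-0.51 ± 0.10; adjusted p = 0.013), and the mean was 0.70-fold in hypoxia and 0.58-fold in emetine. The 1.12-fold in shRent1 cells (adjusted p = 0.0485) missed the threshold in 18 of the 20 fits without 1 array. EIF5B, the GTPase of subunit joining, passed for no comparison with control, with means from 0.96-fold to 1.05-fold.

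Most subunits of eIF2B, the exchange factor of eIF2, were lower in hypoxia and emetine. EIF2B3 read 716, 811, 756 and 846 in hypoxia, 963, 1184, 1278 and 1451 in tunicamycin, 633, 674, 751 and 808 in emetine, 951, 1036, 1169 and 1154 in shRent1 cells, and 1045, 1167, 1222 and 1286 in control. EIF2B1 read 1137, 1127, 1070 and 1110 in hypoxia, 1314, 1438, 1410 and 1430 in tunicamycin, 934, 971, 976 and 1026 in emetine, 1355, 1328, 1376 and 1382 in shRent1 cells, and 1414, 1479, 1341 and 1452 in control. For both genes every hypoxia and emetine array lay below every control array. The mean of EIF2B3 was lower in hypoxia (-0.59 ± 0.06; adjusted p = 1.61e-05) and in emetine (-0.72 ± 0.06; adjusted p = 1.51e-07), and that of EIF2B1 was lower too, at -0.36 and -0.54, both past the threshold. Of the 5 subunits, 4 fell in hypoxia and 0 rose, and in emetine 3 fell and 1 rose, against 14.4% down and 15.9% up of all genes in hypoxia and 38.1% down and 30.5% up in emetine. In emetine 3 of 5 lower is above the share of all genes and 1 of 5 higher is below it. A count over 5 genes is coarse, and these differences were not tested. EIF2B2 was 0.76-fold in hypoxia, and its 0.94-fold in emetine was short of the threshold. EIF2B5, the catalytic subunit, rose in emetine (0.27 ± 0.06) and shRent1 cells (0.21 ± 0.06; lost in 5 of the 20 fits without 1 array), and EIF2B4 fell in hypoxia (-0.51), emetine (-0.28) and shRent1 cells (-0.32). In tunicamycin 0 of the 5 passed for the mean, with estimates from -0.03 to 0.06. The ACTB 3' to 5' ratio was 2.04 in both hypoxia and emetine and 0.54 in tunicamycin, against 0.55 in control. That of GAPDH was 0.15 in hypoxia, 0.11 in emetine and 0.003 in tunicamycin, against 0.04 in control. The part of RNA or labelling length in these differences was not tested.

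**Figure D5:**
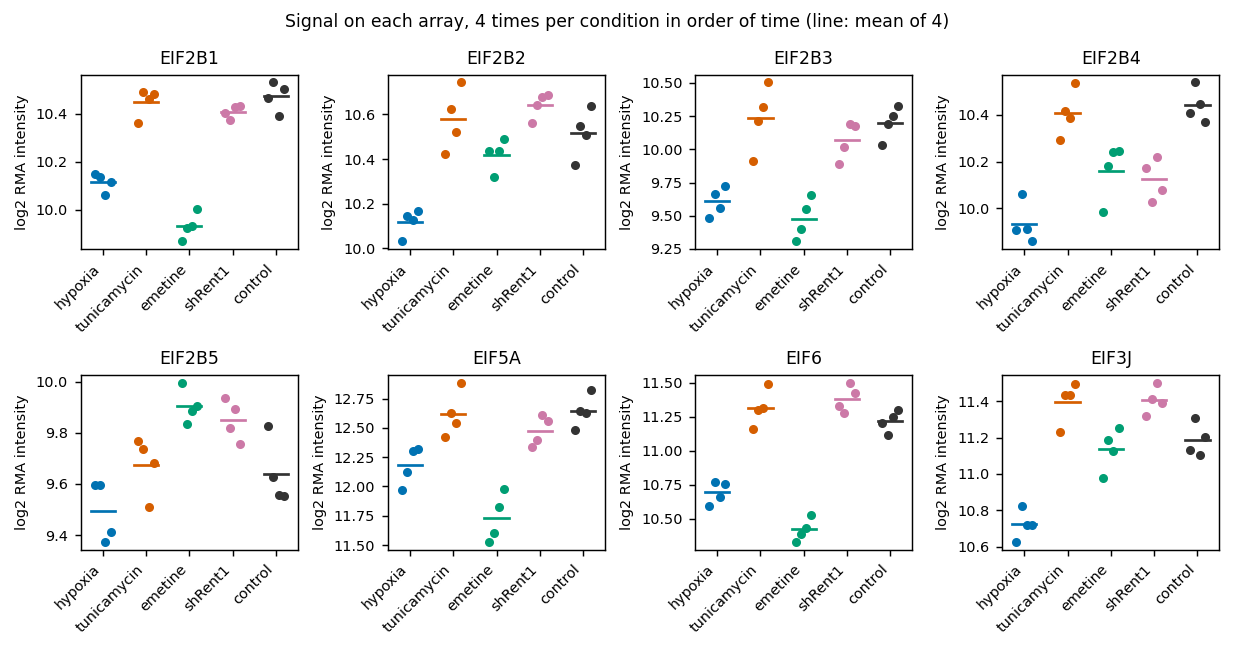
Signal (log2 RMA intensity) of the 5 eIF2B subunits, EIF5A, EIF6 and EIF3J on every array, 4 times per group in order of time with a line at their mean. Each gene is drawn from its brightest probe set. For EIF2B1, EIF2B3, EIF5A and EIF6 the hypoxia and emetine arrays lie below all 4 control arrays, and EIF2B2 and EIF3J are low in hypoxia.

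EIF2S1, the alpha subunit of eIF2 that stress kinases phosphorylate, was 0.80-fold in hypoxia and 0.83-fold in emetine by its brightest probe set. Its 2 other probe sets gave mean differences of 0.07 and 0.11 for hypoxia, and -0.03 and -0.04 for emetine. The EIF2S1 fall thus rests on 1 probe set. EIF2S2 was 0.81-fold in hypoxia and 0.83-fold in emetine and 1.28-fold in tunicamycin, all past the threshold. Among the eIF2 kinases, EIF2AK2 (PKR) read 222, 335, 330 and 381 in emetine, against 358, 501, 452 and 474 in control. Its mean fell in emetine by 0.51 ± 0.07 (adjusted p = 4.07e-05), and the 2 other probe sets of EIF2AK2 gave larger differences there, of -1.14 and -0.91. EIF2AK1 (HRI) fell in emetine by 0.24, while its second probe set gave 0.02, and EIF2AK4 (GCN2) passed for no comparison with control.

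Of the 12 tested eIF3 subunits, the scaffold that links the ribosome to eIF4G, 3 rose and 5 fell in hypoxia, 3 rose in tunicamycin, 1 rose and 4 fell in emetine, and 2 rose and 1 fell in shRent1 cells (mean level). All genes gave 15.9% up and 14.4% down in hypoxia, 16.2% and 15.5% in tunicamycin, 30.5% and 38.1% in emetine and 23.4% and 17.4% in shRent1 cells. EIF3J, the loosely bound subunit, read 1581, 1810, 1688 and 1688 in hypoxia, 2400, 2769, 2764 and 2887 in tunicamycin, 2015, 2328, 2240 and 2441 in emetine, 2552, 2731, 2901 and 2686 in shRent1 cells, and 2247, 2533, 2202 and 2354 in control. By this brightest probe set it was 0.73-fold in hypoxia, below every control array, and 1.16-fold in tunicamycin and in shRent1 cells. The second EIF3J probe set, 208264_s_at, read 395, 390, 340 and 335 in hypoxia, against 359, 509, 348 and 400 in control. It was thus above control at 0 hr and overlapped with it. The neighbouring subunits EIF3G and EIF3I were lower in hypoxia (0.84-fold and 0.83-fold) and emetine (0.69-fold and 0.74-fold). EIF3A, the largest core subunit, rose in all 4 groups by its brightest probe set (1.33-fold, 1.20-fold, 1.39-fold and 1.14-fold, from hypoxia to shRent1). Its other probe sets gave -0.07 and -0.16 for hypoxia, and 0.11 and -0.19 for emetine. The EIF3A rise in these groups thus rests on 1 probe set. EIF3B fell in hypoxia (-0.21) and emetine (-0.32) by its 3 brightest probe sets. EIF3K rose in hypoxia by 0.16, with -0.02 and -0.04 in its next probe sets, and EIF3L rose there by 0.14, EIF3M rose in tunicamycin by 0.21, and EIF3D fell in hypoxia and emetine by 0.14 and 0.13 (adjusted p = 0.0411, 0.0443, 0.0253, 0.0486 and 0.037). These calls were weak: of the 20 fits without 1 array they were lost in 13, 17, 4, 20 and 7, in the same order. Those of EIF3A were lost in 2 for tunicamycin and 7 for shRent1, of EIF3B in 5 for hypoxia, and of EIF3J in 2 for tunicamycin.

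EIF4E2 (4EHP), a relative of eIF4E that binds the cap and can repress translation, showed a fall in tunicamycin. It read 1308, 1494, 1460 and 1408 in hypoxia, 1120, 925, 734 and 703 in tunicamycin, 1174, 1317, 1347 and 1370 in emetine, 1477, 1576, 1749 and 1757 in shRent1 cells, and 1482, 1685, 1577 and 1663 in control. The tunicamycin arrays lay below all others and went on falling after DRB, by 0.16 ± 0.03 log2 per hr (adjusted p = 0.00121). Against control the level at DRB addition was -0.49 ± 0.10 (adjusted p = 0.0265), the slope difference was -0.18 ± 0.04 (adjusted p = 0.0128) and the mean was 0.53-fold. The level call was lost in 5 and the slope call in 3 of the 20 fits without 1 array. All 4 probe sets of EIF4E2 were lower in tunicamycin, at -1.43 to -0.35. In emetine they disagreed: the brightest gave -0.30 ± 0.06 (adjusted p = 0.000916) and 226734_at gave 0.42 (adjusted p = 0.00993). EIF4E, the main cap-binding factor, was lower in hypoxia (-0.34), tunicamycin (-0.19) and emetine (-0.28) by its brightest probe set, while 201437_s_at gave 0.10 in hypoxia and 0.25 in emetine (adjusted p = 0.584 and 0.0873). The dim 237718_at was higher in emetine (0.28; adjusted p = 0.0443), at 55, 62, 47 and 61 in emetine against 47, 46, 42 and 49 in control. In tunicamycin 201436_at gave 0.04 and 201437_s_at 0.005, and the EIF4E call there was lost in 6 of the 20 fits without 1 array. EIF4H fell in emetine by 0.17 (lost in 3 such fits), and EIF4G1 and EIF4G2 passed for no comparison with control.

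The mRNAs of the 4E-BP proteins, inhibitors of eIF4E, fell in emetine, and less in hypoxia. EIF4EBP1 read 1389, 1540, 1768 and 1703 in hypoxia, 1689, 1919, 2053 and 2316 in tunicamycin, 1088, 1091, 1168 and 1206 in emetine, 1722, 1745, 1968 and 2123 in shRent1 cells, and 1611, 1667, 1846 and 2084 in control. It was 0.63-fold in emetine (adjusted p = 3.58e-07), with no overlap with control, and 0.89-fold in hypoxia (adjusted p = 0.0357). EIF4EBP2 was 0.69-fold in emetine, 0.68-fold in tunicamycin and 0.85-fold in hypoxia, all past the threshold, and its other 3 probe sets were lower too in each of these groups. In hypoxia the EIF4EBP1 call was lost in 7 of the 20 fits without 1 array (-0.11 without the 4.5 hr hypoxia array) and the EIF4EBP2 call in 5. EIF5A, the hypusine-bearing factor that helps ribosomes past difficult peptide bonds, read 4020, 4476, 5059 and 5114 in hypoxia, 5497, 6319, 5961 and 7565 in tunicamycin, 2953, 3117, 3638 and 4026 in emetine, 5160, 5382, 6259 and 6051 in shRent1 cells, and 5731, 6391, 6342 and 7227 in control. It was the most lowered member at DRB addition in emetine (-0.995 ± 0.11; adjusted p = 2.7e-05) and its mean there was 0.53-fold, with -0.52 and -0.62 in the 2 other probe sets. In hypoxia the mean of EIF5A was 0.73-fold, but the other probe sets gave -0.07 and -0.03.

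EEF2K, the kinase that inhibits eEF2, was low in tunicamycin. It read 322, 384, 363 and 360 in hypoxia, 244, 238, 235 and 232 in tunicamycin, 268, 352, 328 and 377 in emetine, 311, 296, 280 and 264 in shRent1 cells, and 342, 377, 425 and 330 in control. The tunicamycin and shRent1 arrays lay below every control array. The level at DRB addition fell by 0.59 ± 0.13 in tunicamycin (adjusted p = 0.0314), and the mean was 0.65-fold in tunicamycin and 0.78-fold in shRent1 cells. The level call was lost in 6 of the 20 fits without 1 array. The second EEF2K probe set was lower too, at -0.82 and -0.35, and at -0.67 in emetine, where the brighter probe set had a lower level at DRB addition (-0.36 ± 0.13; adjusted p = 0.0427) and a mean of 0.90-fold, short of the threshold.

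After DRB, 4 members rose and 5 fell in control (9.30% and 11.6%, against 14.2% and 17.5% of all genes). The 5 that fell were EIF1B, EIF5, EIF2S2, EIF2A and EIF1. The 4 that rose relative to the array were EIF3G (0.10 ± 0.02 log2 per hr), EIF3I (0.09), EIF4EBP1 (0.08) and EIF3K (0.07). Without the 0 hr control array 1 member passed, and without the 4.5 hr control array 2 did. In hypoxia 4 rose and 4 fell (against 15.3% and 14.2% of all genes), in tunicamycin 5 and 1 (against 11% and 11.4%), in shRent1 cells 4 and 1 (against 11% and 16.5%), and in emetine 0 and 0 (5 at an unadjusted p under 0.05, limma; against 0.0691% and 0.325%). Slopes differed from control in 0 members under hypoxia (1 at an unadjusted p under 0.05; against 0.0345% up and 0% down of all genes). They differed in 1 up and 1 down under tunicamycin (against 4.66% and 0.58%), in 3 up and 0 down under emetine (against 12.8% and 1.58%), and in 0 in shRent1 cells (1 at an unadjusted p; against 0.0345% and 0.00691%). Next after EIF1B in size of statistic came EIF4G2 (-0.05; adjusted p = 0.672) and EIF2A (-0.04; adjusted p = 0.723) in hypoxia, EIF4E2 and then EIF4EBP2 (-0.15; adjusted p = 0.088) in tunicamycin, and EIF5 (0.08; adjusted p = 0.795) and EIF3M (0.06; adjusted p = 0.905) in shRent1 cells.

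Groups were also set against each other. For the mean level 25 members differed between hypoxia and tunicamycin (against 45.1% of all genes), 18 between hypoxia and emetine (63.5%), 24 between hypoxia and shRent1 (43.5%), 23 between tunicamycin and emetine (62.1%), 13 between tunicamycin and shRent1 (44.6%) and 25 between emetine and shRent1 (58.6%). For the slope the counts were 4 (against 5.91%), 3 (13.2%), 0 (0.104%), 1 (6.4%), 2 (3.39%) and 1 (13.7%) in the same order of pairs. The slope of EIF1B was lower in hypoxia than in tunicamycin (-0.39 ± 0.06; adjusted p = 0.00663) and than in emetine (-0.36 ± 0.06; adjusted p = 0.00298). It was higher than in shRent1 cells in tunicamycin (0.37; adjusted p = 0.00868) and in emetine (0.34; adjusted p = 0.0032). Between tunicamycin and emetine it differed by 0.03 ± 0.06 (adjusted p = 0.669).

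Of 30 tested translation genes outside the member list, 8 rose and 9 fell in hypoxia, 5 and 4 in tunicamycin, 10 and 12 in emetine, and 7 and 3 in shRent1 cells (mean level). In emetine these shares are near those of all genes (30.5% up and 38.1% down), and in hypoxia they are larger (15.9% and 14.4%). All genes gave 16.2% up and 15.5% down in tunicamycin and 23.4% and 17.4% in shRent1 cells. EIF2AK3 (PERK), the eIF2 kinase of the endoplasmic reticulum, had a higher mean in hypoxia (1.05), tunicamycin (1.87), emetine (2.41) and shRent1 cells (0.74). At DRB addition it was at 0.42 in hypoxia, short of the threshold (adjusted p = 0.0946). There it passed in tunicamycin (1.92), emetine (1.67) and shRent1 cells (0.54). PPP1R15A (GADD34), which brings a phosphatase to eIF2, rose in tunicamycin (1.57), emetine (4.41) and shRent1 cells (0.95), and was at 0.19 in hypoxia (adjusted p = 0.32). The mean of PPP1R15B was higher in hypoxia (1.18), emetine (2.82) and shRent1 cells (0.90), and at 0.30 in tunicamycin (adjusted p = 0.166). At DRB addition PPP1R15B was at 0.42 in hypoxia (adjusted p = 0.363). PELO, which rescues stalled ribosomes, had a higher mean in hypoxia (0.75), tunicamycin (1.19) and emetine (3.10). Its slope after DRB in control was -0.98 log2 per hr (adjusted p = 3.2e-05), and in emetine the slope was higher by 0.92. At DRB addition PELO was at 0.24 in hypoxia and 0.67 in tunicamycin (adjusted p = 0.686 and 0.244). In emetine it was at 1.02 then (adjusted p = 0.0126). GSPT2 had a higher mean in hypoxia (0.37), tunicamycin (0.95) and emetine (2.60). Its slope in control was -0.99 log2 per hr, and in emetine the slope was higher by 0.94. EIF4ENIF1 had a higher mean (1.43) and slope (0.38) in emetine, and MKNK1 a higher mean in hypoxia (0.45) and emetine (0.83). Other genes of this list that passed are given by the counts alone. EIF2S3, the gamma subunit of eIF2, fell in hypoxia (-0.25), emetine (-0.71) and shRent1 cells (-0.18), and LARP1, which binds TOP mRNAs, fell in tunicamycin (-0.30) and emetine (-0.86). Elongation genes outside the member list did move. EEF1A2 had a higher mean in hypoxia (0.41) and emetine (0.22), and EEFSEC a lower one in hypoxia (-0.27) and emetine (-0.27).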

How the data were processed

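Total RNA was amplified and labelled with biotin, per the labels' protocols, and the authors deposited 1 intensity per probe set and array on a linear scale. The intensities were made with RMA, per the submitters' processing notes, with no version given. RMA normalizes between arrays, which removes a shift shared by most transcripts, such as loss after DRB. The median intensity per array was 37.3 to 40.4, pairwise correlations of arrays were 0.930 to 0.996, and precision is limited by how many arrays there are.

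Values were taken to log2. Gene symbols came from the platform annotation and were brought up to date by Entrez identifier: 41097 had 1 symbol, 1801 several and 11777 none. Each gene was read from its probe set with the highest mean, and genes above the 40th percentile of probe set means (log2 4.70) were tested. The model in limma 3.58.1 (R 4.3.3) fitted a level for each time, an offset for each condition and a slope offset for each condition (12 coefficients, 8 residual degrees of freedom). It gives the level at DRB addition, the difference of the means over the 4 times and the slope difference. Slopes within a group came from a line per group (10 coefficients, 10 residual degrees of freedom). Adjustment of p-values was by Benjamini-Hochberg over all 14478 genes at a threshold of 0.05, and the fits were tested on simulated data.

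The members and gene lists were chosen with earlier results of these data known. Values are given for members past the threshold, or the 3 largest statistics where fewer than 3 passed, and for other probe sets where they differ. The fit of every probe set on its own was added after seeing the data. Start windows and their motif come from a RefSeq promoter table, which lacks some members. Protein sequences were not used here. Alternatives were quantile normalization, centring on ribosomal protein genes, no filter on dim probe sets, no _s_at or _x_at probe sets, a straight line for time (for the control slope, the square root of hours), and leaving out each array.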

Additional observations from a re-analysis of the deposited data

Results flagged for a closer look

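In 3 of 71 called mean differences, 1 time stood apart from the other 3 by Dixon's test, which chance gives for about 1 in 20. EIF5A under hypoxia differed from control by -0.326 at 3 hr. EIF3I under hypoxia differed by -0.354 at 4.5 hr. EIF3D under emetine differed by -0.238 at 0 hr.

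Slopes after DRB differed between groups by a test of the difference itself for 5 members. EIF1B differed by -0.3855 log2 per hr for hypoxia minus tunicamycin, -0.3575 for hypoxia minus emetine, 0.3679 for tunicamycin minus shRent1 and 0.3399 for emetine minus shRent1. EIF2A differed by -0.1286 for hypoxia minus tunicamycin and -0.1555 for hypoxia minus emetine, EIF2S2 by -0.1263 for hypoxia minus emetine, and EIF5 by -0.1499 for hypoxia minus tunicamycin. EIF4E2 differed by 0.1756 for hypoxia minus tunicamycin, -0.2033 for tunicamycin minus emetine and -0.2167 for tunicamycin minus shRent1. By the same kind of test, mean levels differed for 25 of the 43 members between hypoxia and tunicamycin, 18 between hypoxia and emetine, 24 between hypoxia and shRent1, 23 between tunicamycin and emetine, 13 between tunicamycin and shRent1 and 25 between emetine and shRent1. Of all genes 45.1%, 63.5%, 43.5%, 62.1%, 44.6% and 58.6% differed for the same pairs, so these counts are near or below the share of all genes except for the first and the third pair.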

How the results depend on the processing

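Without _s_at and _x_at probe sets, which may detect related transcripts, the main probe set changed for many members and 16 of 103 named values turned sign. These were EIF2S1 in hypoxia (level 0.1416, mean 0.07356), EIF3A in hypoxia (level -0.1539, mean -0.1612) and emetine (level -0.4556, mean -0.1909), and EIF3B, read from a dim probe set, in hypoxia (mean 0.6903) and emetine (level 2.595, mean 3.665). The others were EIF4E in hypoxia (mean 0.1175) and tunicamycin (mean 0.03699), EIF4E2 in emetine (level 0.2, mean 0.4238), EIF3F in shRent1 (mean 1.3), and the control slopes of EIF2S2 (0.01476) and EIF3K (-0.05318). In this setting fewer genes were tested, the member count at DRB addition was 1 in hypoxia and 3 in shRent1, that for the mean in hypoxia was 10, and that for the slope in emetine was 1. Hypoxia lowered or raised 5 at DRB addition with no filter on dim probe sets, which adds genes to the adjustment. At DRB addition tunicamycin had 1 with a straight line for time, and shRent1 had 2 with quantile normalization and 2 with centring on ribosomal protein genes, for which the cause was not tested. No value reversed under these or with every probe set fitted, where 112 of 124 named values kept their call and 12 lost it. Neither scaling moved the median of all genes by over 0.1.

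Leaving out 1 of the 20 arrays at a time, 2151 of 2480 named values kept direction and call. The count at DRB addition ranged from 0 to 10 in hypoxia, 0 to 2 in tunicamycin, 7 to 18 in emetine and 0 to 1 in shRent1 cells, lowest without the 0 hr control array in each. For the mean it ranged from 15 to 22 in hypoxia, 7 to 12 in tunicamycin, 21 to 26 in emetine and 5 to 12 in shRent1 cells. For the slope difference it was 0 in hypoxia and in shRent1 cells, 1 to 2 in tunicamycin and 1 to 3 in emetine. Members with a slope in control numbered 1 to 9, with 1 left without its 0 hr array and 2 without its 4.5 hr array. No paired analysis was possible because replicate numbers stand for times, with 1 array per condition and time, and time is already in the model.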

Other observations

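A pair of dimmer probe sets annotated to EIF3B did not follow the main one. Probe set 242550_at read 1023, 104, 20 and 15 in hypoxia, 934, 23, 15 and 13 in tunicamycin, 1740, 887, 378 and 216 in emetine, 888, 48, 16 and 17 in shRent1 cells, and 744, 25, 18 and 15 in control, from 0 to 4.5 hr. It lost nearly all signal by 1.5 hr in control and tunicamycin and fell more slowly in emetine, where 12.4% was left at 4.5 hr, against 2.0% in control. Probe set 236274_at fell too, to 43 in emetine and 51 in control at 4.5 hr. The brightest EIF3B probe set had 91.6% left in emetine and 85.1% in control. Which transcripts the dim probe sets detect was not tested.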
